A study of Mus musculus with 12 samples.

Results

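A set of 177 genes, of 16283 in the count table, was low after interferon gamma (IFN-gamma) in control 4T1 cells and kept at least 0.9 of its vehicle level in cells carrying either of 2 guides against Cebpd. The members were chosen from the read counts themselves, as counts scaled to 1000000 reads of the library (CPM), averaged over the 2 libraries of a group. A member had at least 5 CPM in vehicle-treated control cells, an IFN-gamma/vehicle ratio of at most 0.4 in the control, and a ratio of at least 0.9 with each Cebpd guide. At least 5 CPM in the control was met by 9865 genes, and 517 of these had a control ratio of at most 0.4. The 177 members are 34.2% of those 517, and the other 340 are called the other repressed genes here. All 3 ratios of a member are therefore a consequence of its selection and are given as descriptions.

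The RNA came from 4T1 cells, a line grown from a mammary tumour of the BALB/c strain, which the series treats as triple-negative breast cancer. Every line of cells carried a CRISPR guide: one against the safe-harbour locus Rosa26 (labelled control), or one of 2 against Cebpd, labelled sgRNA1 and sgRNA2. Each line was treated with vehicle or with IFN-gamma at 20 ng/ml for 24 hours, which gives 6 groups of 2 libraries, and the series compares the transcriptome and its response to IFN-gamma with Cebpd intact and lost. The labels do not say whether a line was a pool or a single clone, nor whether replicate libraries stem from separate cultures. The p-values therefore cover only the spread between libraries, which may be technical.

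C/EBPδ, the product of Cebpd, is a leucine zipper factor that binds DNA at inflammatory and acute phase genes. IFN-gamma is a cytokine best known for inducing antigen presentation and antiviral genes, and it slows the growth of many tumour cells. Ribosome biogenesis, the process to which the largest group of members belongs, starts in the nucleolus, where RNA polymerase I copies the ribosomal DNA, small nucleolar ribonucleoproteins modify the transcript, and assembly factors fold and cut it into the small and large subunits. It is among the most costly programmes of a growing cell, and many of its genes are known targets of MYC, which binds the E-box CACGTG.

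Total counts per library lay between 16912710 and 24784371. Cebpd itself had 8.99 and 7.07 CPM in control vehicle and 51.5 and 47.4 in control IFN-gamma. With sgRNA1 it had 13.4 and 13.1 in vehicle and 49.8 in both IFN-gamma libraries, and with sgRNA2 10.3 and 8.19 in vehicle and 30.2 in both IFN-gamma libraries. The RNA was thus not lower with either guide in vehicle, whereas in IFN-gamma every sgRNA2 library was below every control and sgRNA1 library. A count over the whole gene does not show whether its reading frame was cut. Of 19 listed epithelial markers in the table, all were tested, with a summed level of 4320 to 4940 CPM over the 12 libraries. Mesenchymal markers, 14 of 17 listed in the table and 10 tested, had sums from 3570 to 5890 CPM, a range that takes in the epithelial one. Of 8 macrophage markers 5 were in the table and 4 were tested, and the 5 had sums from 15.4 to 48.2 CPM. These sums were 15.4 to 16.8 CPM in control vehicle and 43.7 to 43.8 in control IFN-gamma. Of 8 fibroblast markers 3 were in the table and 2 were tested, and the 3 had sums from 14.1 to 33.6 CPM. No lymphocyte or endothelial marker passed the filter on low counts. The library kit is unstranded, so a read from an antisense gene cannot be told apart from one of its partner, which touches the 3 antisense members. Near-identical copies can share reads, which touches the processed pseudogenes Gm10163 and Itpa-ps1 and the members Itpa, Gm10053, Gm4353, Gm45902, Prl2c3 and Siah1b.

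Over the 177 members the control ratio ran from 0.120 (Egr1) to 0.4, with a median of 0.329. The sgRNA1 ratio had a median of 1.07 and a highest finite value of 2.71 (Slc16a6, a monocarboxylate transporter family member), and the sgRNA2 ratio had a median of 1.59. A ratio of at least 1.5 was reached by 104 members with sgRNA2 and by 17 with sgRNA1, and 156 members had a higher ratio with sgRNA2 than with sgRNA1. Over the 9865 genes at or above 5 CPM, the same medians were 0.964, 1.12 and 1.08. The other repressed genes had 0.312, 0.737 and 0.978, so a higher ratio with sgRNA2 than with sgRNA1 was not particular to the members. The counts at a ratio of 1.5 were not made over all genes. Of the other repressed genes, 200 met the limit with sgRNA2 alone, 17 with sgRNA1 alone and 123 with neither guide. Only 7 of the 517 had a ratio of at most 0.4 with both guides. With sgRNA1 in the place of the control the same rule found 1 gene, and with sgRNA2 it found 34.

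The limits fall within a continuous range. At the control limit, Rab23 (0.3999), Fam118b (0.3998) and Secisbp2 (0.3973) lay just inside, and Exo1 (0.4002), Ebna1bp2 (0.4009) and Toe1 (0.4014) just outside. At the sgRNA1 limit, Dhodh (0.9001), Sco2 (0.9009) and Tuba4a (0.9019) lay inside, and Smn1 (0.8967), Wdr77 (0.8963) and Wdr3 (0.8961) outside. At the sgRNA2 limit, Mfap3l (0.9364), Adat1 (0.9417) and Map2k3os (0.9632) lay inside, and Mphosph9 (0.8563), Sfn (0.8441) and Utp14b (0.8286) outside. At the limit on control vehicle CPM, Tmem62 (5.201), Ufsp1 (5.282) and Dnmt3b (5.587) lay inside, and Rtl10 (4.901), Macrod2 (4.588) and Gm17435 (4.581) outside. The ratios use plain CPM, and scaling by TMM, which evens out the bulk of genes between libraries, gave factors of 1.08 and 1.09 for the sgRNA1 IFN-gamma libraries. With TMM-scaled libraries the rule kept 112 of the 177 members, and 49 of the 65 members lost then missed the sgRNA1 limit, with 0.812 as the lowest ratio. In the figure of guide ratios the members fill the upper right corner and run on from the other repressed genes without a gap.

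**Figure D1:**
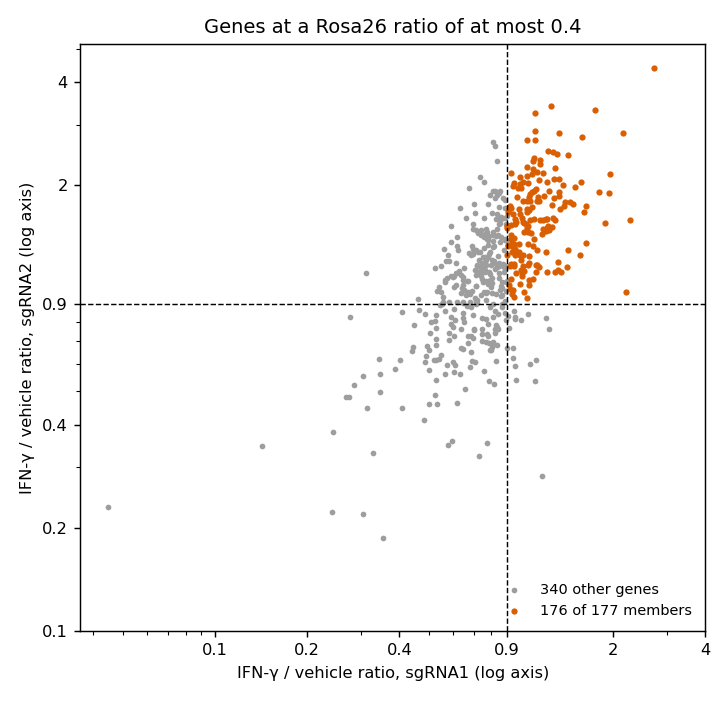
IFN-gamma/vehicle ratio of mean CPM with sgRNA1 (x axis, log) and sgRNA2 (y axis, log) for the 517 genes with a control ratio of at most 0.4. Members are orange, the other 340 genes grey, and dashed lines mark the limit of 0.9. Gm10163 is not drawn because it had no count in the sgRNA1 vehicle libraries. Most members lie at higher ratios with sgRNA2 (median 1.59) than with sgRNA1 (median 1.07).

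The members stood at different levels with the 2 guides, and this difference was already there in vehicle. As a percentage of the level in control vehicle, the median member stood at 32.9% in control IFN-gamma (quartiles 27.5 and 37.0). With sgRNA1 it stood at 79.0% in vehicle (68.7 and 92.7) and 89.7% in IFN-gamma (75.4 and 105). With sgRNA2 it stood at 32.1% in vehicle (25.8 and 43.8) and 51.1% in IFN-gamma (42.5 and 62.2). The rule used these values and favours low levels in control IFN-gamma and in the vehicle libraries of both guides, so these medians describe the selected genes and their likeness is no test. The 9865 genes at or above 5 CPM had medians of 96.4%, 95.5%, 105%, 91.0% and 98.3% in the same order of groups. The other repressed genes had 31.2%, 99.4%, 69.3%, 51.3% and 49.3%, so they too were lower in vehicle with sgRNA2 than with sgRNA1. In this bulk RNA, fewer cells of one state and less RNA in every cell cannot be told apart.

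**Figure D2:**
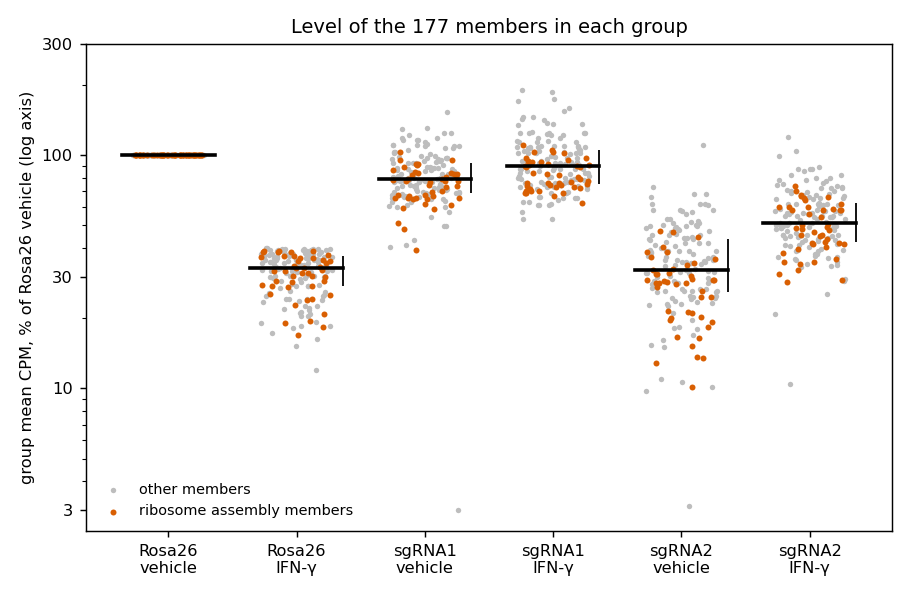
Mean CPM of each of the 177 members in each group, as a percentage of its control (Rosa26) vehicle mean, on a log axis. Orange points are the 45 ribosome assembly members, grey points the others, thick lines the median and thin vertical lines the quartiles. A value under 3% (Gm10163 with sgRNA1 in vehicle, at 0) is drawn at 3%. The sgRNA2 vehicle points (median 32.1%) overlap the control IFN-gamma points (median 32.9%).

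The summed level of the members was 9910 and 9950 CPM in the control vehicle libraries and 3250 and 3260 in the control IFN-gamma libraries. The sums were 7560 and 7620 CPM with sgRNA1 in vehicle and 8460 and 8550 in IFN-gamma. With sgRNA2 they were 2990 and 3050 CPM in vehicle and 4990 and 5130 in IFN-gamma. The 2 libraries of a group lay close together: the median coefficient of variation of a member between them was 3.65% to 6.11%. Ribosomal protein transcripts took 8.80% and 8.89% of counts in control vehicle, 7.80% and 7.81% in control IFN-gamma, 11.5% in both sgRNA1 vehicle libraries, and 7.84% and 7.38% in sgRNA1 IFN-gamma. With sgRNA2 they took 13.2% and 13.7% in vehicle and 11.6% and 10.5% in IFN-gamma, so their share did not follow the order of the members' sums. Mitochondrial transcripts were highest in the groups where the members were lowest, at 1.03% and 1.18% of counts in control IFN-gamma and 1.12% and 1.14% with sgRNA2 in vehicle, against 0.533% to 0.839% in the other 8 libraries. Their part in the members' levels was not tested.

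Ribosome assembly factors formed the largest group, with 45 of the 177 members, sorted by textbook role after the members were known. Their median level was 31.8% of control vehicle in control IFN-gamma, 77.1% and 81.0% with sgRNA1 in vehicle and IFN-gamma, and 28.4% and 48.1% with sgRNA2. Rrp12 (chr19:41862851-41896173, GRCm38, minus strand, 34 exons), a factor for maturation and export of both subunits, had 58.5 and 61.3 CPM in the control vehicle libraries and 10.1 and 10.3 in control IFN-gamma. With sgRNA1 Rrp12 had 35.8 and 34.8 CPM in vehicle and 45.2 and 42.9 in IFN-gamma, and with sgRNA2 5.94 and 6.12 in vehicle and 20.8 and 20.3 in IFN-gamma. Its sgRNA2 vehicle libraries were the lowest of all 12, below those of control IFN-gamma. Ddx21, a nucleolar RNA helicase on chr10:62580251-62602281 (minus strand), had 381 and 399 CPM in control vehicle and 138 and 140 in control IFN-gamma. Ddx21 stood at 236 and 229 CPM with sgRNA1 in vehicle and 296 and 295 in IFN-gamma, against 62.6 and 67.7 and then 159 and 167 with sgRNA2. No 2 groups overlapped for this gene, and the order from low to high began with sgRNA2 vehicle and control IFN-gamma.

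The same order held for several factors that act at other steps. Nolc1, a phosphoprotein that chaperones small nucleolar ribonucleoproteins, had 248 and 259 CPM in control vehicle, 61.8 and 61.5 in control IFN-gamma, 158 and 152 then 175 and 183 with sgRNA1, and 39.3 and 37.6 then 93.7 and 89.1 with sgRNA2. Nop2, a methyltransferase of the large subunit RNA, had 156 and 165 CPM in control vehicle, 37.1 and 39.7 in control IFN-gamma, 122 and 115 then 127 and 137 with sgRNA1, and 28.7 and 23.9 then 74.9 and 76.4 with sgRNA2. For both genes the lowest libraries were those of sgRNA2 in vehicle. Bysl, a small subunit assembly factor, had 71.8 and 73.8 CPM in control vehicle, 15.6 and 14.6 in control IFN-gamma, 44.6 and 45.9 then 51.4 and 49.0 with sgRNA1, and 8.55 and 10.1 then 30.3 and 30.5 with sgRNA2. Mdn1, the giant AAA ATPase that strips factors from the large subunit precursor, had 103 and 113 CPM in control vehicle, 29.6 and 30 in control IFN-gamma, 41.1 and 43.6 then 79.5 and 86.4 with sgRNA1, and 14.9 and 14.2 then 30.5 and 32.4 with sgRNA2. Mdn1 is one of the members that sgRNA1 too left low in vehicle, at less than the level it had with IFN-gamma. Heatr1, a small subunit processome protein, had 88.3 and 97.0 CPM in control vehicle, 27.2 and 26.5 in control IFN-gamma, 59.7 and 61.1 then 94.9 and 96.4 with sgRNA1, and 16.9 and 17.0 then 45.7 and 48.0 with sgRNA2.

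Grwd1, a chaperone of a large subunit protein, and Dhx33, a helicase of ribosomal RNA synthesis, did not have their lowest library in sgRNA2 vehicle. Grwd1 had 61.4 and 58.4 CPM in control vehicle, 12.1 and 9.97 in control IFN-gamma, 46.5 and 46.7 then 43.5 and 44 with sgRNA1, and 13.4 and 11.7 then 19.6 and 21.9 with sgRNA2. Dhx33 had 68.8 and 61.1 CPM in control vehicle, 11.5 and 13.3 in control IFN-gamma, 43.5 and 43.3 then 42.4 and 44.4 with sgRNA1, and 18.8 and 18.1 then 20.8 and 20.9 with sgRNA2. For Grwd1 the libraries of control IFN-gamma and sgRNA2 vehicle overlapped, and for Dhx33 control IFN-gamma was the lowest group. Tsr1, a late small subunit factor, had 131 and 126 CPM in control vehicle, 27.9 and 30.6 in control IFN-gamma, 79.6 and 89.4 then 93.0 and 101 with sgRNA1, and 23.8 and 25.9 then 42.8 and 46.3 with sgRNA2. Utp4, of the small subunit processome, had 133 and 138 CPM in control vehicle, 45.8 and 44.9 in control IFN-gamma, 115 and 111 then 150 in both libraries with sgRNA1, and 43.7 and 40.1 then 86.8 and 88.1 with sgRNA2. Ftsj3, a methyltransferase of the precursor RNA, had 159 and 160 CPM in control vehicle, 51.1 and 51.4 in control IFN-gamma, 130 and 122 then 145 in both libraries with sgRNA1, and 32.2 and 35.7 then 77.4 and 79.1 with sgRNA2. In Tsr1, Utp4 and Ftsj3 every sgRNA2 vehicle library was below every control IFN-gamma library.

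**Figure D3:**
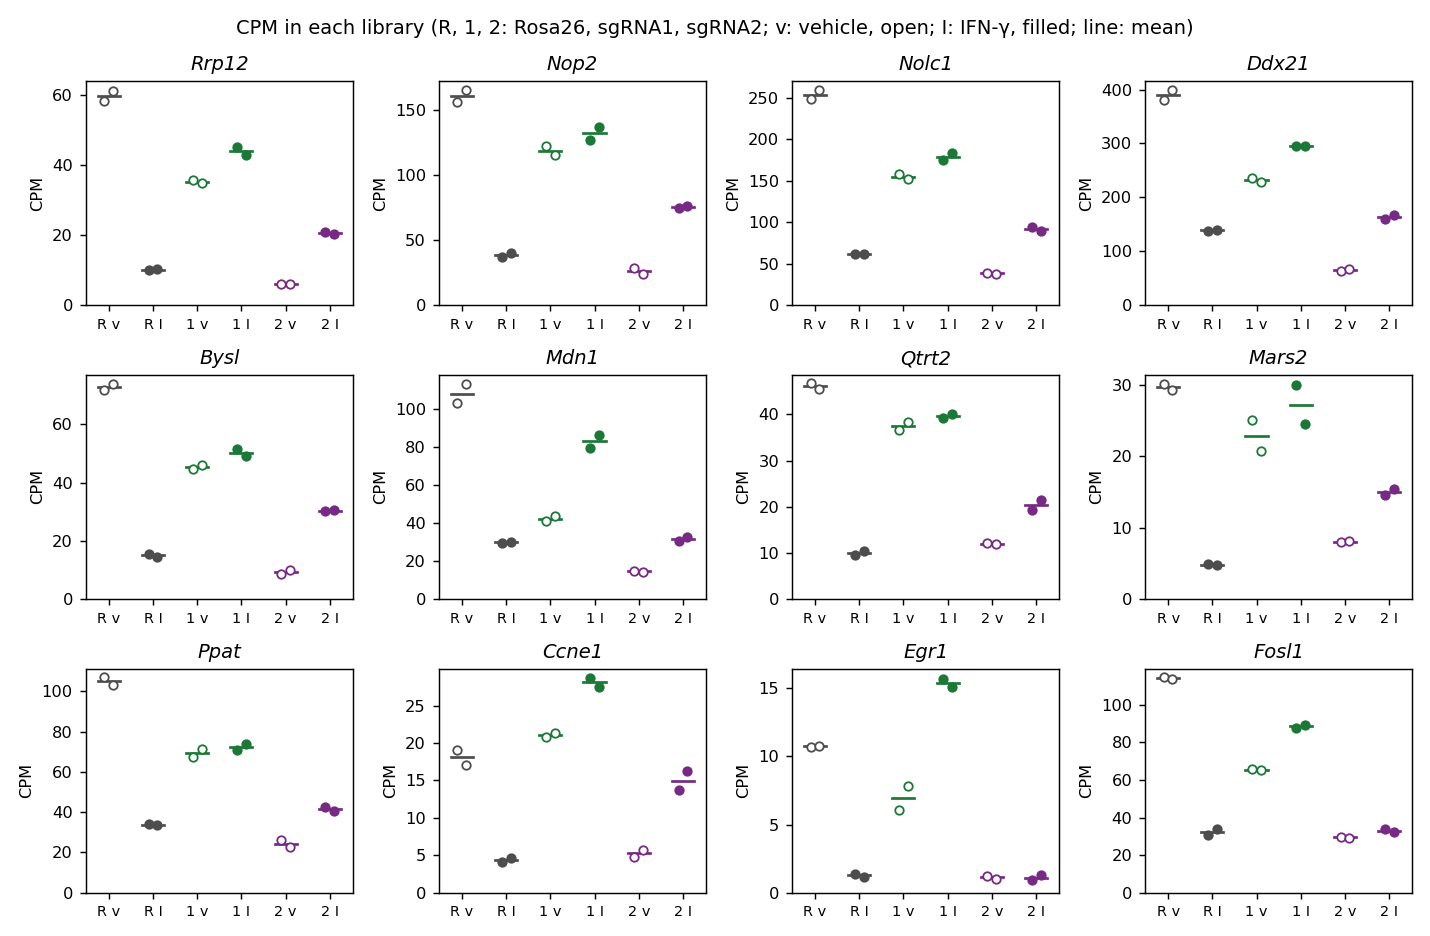
CPM of 12 members in each of the 12 libraries (y axis, linear from 0). On the x axis R, 1 and 2 stand for Rosa26, sgRNA1 and sgRNA2, v and open circles for vehicle, I and filled circles for IFN-gamma, and lines for the mean of 2 libraries. In 11 of the 12 genes the sgRNA2 IFN-gamma libraries lie above those of sgRNA2 vehicle, and in Egr1 they overlap.

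Members also came from smaller complexes of the same pathway. Polr1b, the second largest subunit of RNA polymerase I, had 54.6 and 53.4 CPM in control vehicle, 14.8 in both control IFN-gamma libraries, 42.2 and 43.0 then 39.9 and 38.2 with sgRNA1, and 12.7 and 13.9 then 23.2 and 22.2 with sgRNA2. Gar1, of the pseudouridine-forming small nucleolar particles, had 57.3 and 62.3 CPM in control vehicle, 20.5 and 19.1 in control IFN-gamma, 42.3 and 40.8 then 42.2 and 41.8 with sgRNA1, and 15.6 and 16.9 then 25.9 and 24.8 with sgRNA2. Rrp9, a protein of the U3 particle, had 73.8 and 78.4 CPM in control vehicle, 29.2 and 29.1 in control IFN-gamma, 60.5 and 62.5 then 71.2 and 65.5 with sgRNA1, and 19.6 and 18.0 then 47.9 and 54.2 with sgRNA2. With sgRNA1, Polr1b was slightly lower in IFN-gamma than in vehicle (ratio 0.915) and Gar1 overlapped between the treatments. Noc3l, a large subunit factor, had 42.0 and 45.1 CPM in control vehicle, 13.8 and 13.5 in control IFN-gamma, 28.3 and 28.9 then 32.8 and 37.8 with sgRNA1, and 10.7 and 13.9 then 18.3 and 18.2 with sgRNA2. Nle1, which docks Mdn1 on the large subunit precursor, had 40.9 and 43.2 CPM in control vehicle, 12.1 and 13.2 in control IFN-gamma, 43.0 and 43.5 then 41.3 and 37.1 with sgRNA1, and 18.9 and 15.1 then 28.6 and 28.4 with sgRNA2. Noc3l overlapped between control IFN-gamma and sgRNA2 vehicle, and Nle1 was higher in sgRNA2 vehicle. Ltv1, which accompanies the small subunit precursor out of the nucleus, had 47.7 and 49.7 CPM in control vehicle, 14.7 and 16.4 in control IFN-gamma, 41.8 and 40.2 then 38.4 and 35.7 with sgRNA1, and 14.2 and 18.7 then 22.5 and 21.6 with sgRNA2. Rrp1b, a nucleolar protein of the large subunit pathway, had 78.8 and 75.7 CPM in control vehicle, 29.8 and 27.4 in control IFN-gamma, 55.5 and 56.8 then 53.3 and 57.7 with sgRNA1, and 30.4 and 29.1 then 36.9 and 39.3 with sgRNA2. These 4 genes spanned sgRNA1 ratios from 0.904 to 1.23.

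The pathway was broader than the members. Of a list of 44 ribosome biogenesis genes, 27 had a control ratio of at most 0.4 and 16 were members. The median of the whole list was 32.8% of control vehicle in control IFN-gamma, 79.3% and 77.2% with sgRNA1, and 31.0% and 53.3% with sgRNA2. Nop56, a core protein of box C/D particles, was no member because its sgRNA1 ratio was 0.711, although its control ratio was 0.169. Gnl3, the nucleolar GTPase nucleostemin, missed the same limit at 0.723 with a control ratio of 0.231. Polr1a, the largest subunit of RNA polymerase I, missed the control limit at 0.613, with ratios of 2.08 and 2.76 with the guides. Npm1, the most abundant nucleolar protein gene of the list, had ratios of 0.724, 0.694 and 0.926. By its median the whole list was therefore low both in control IFN-gamma and in sgRNA2 vehicle.

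**Figure D4:**
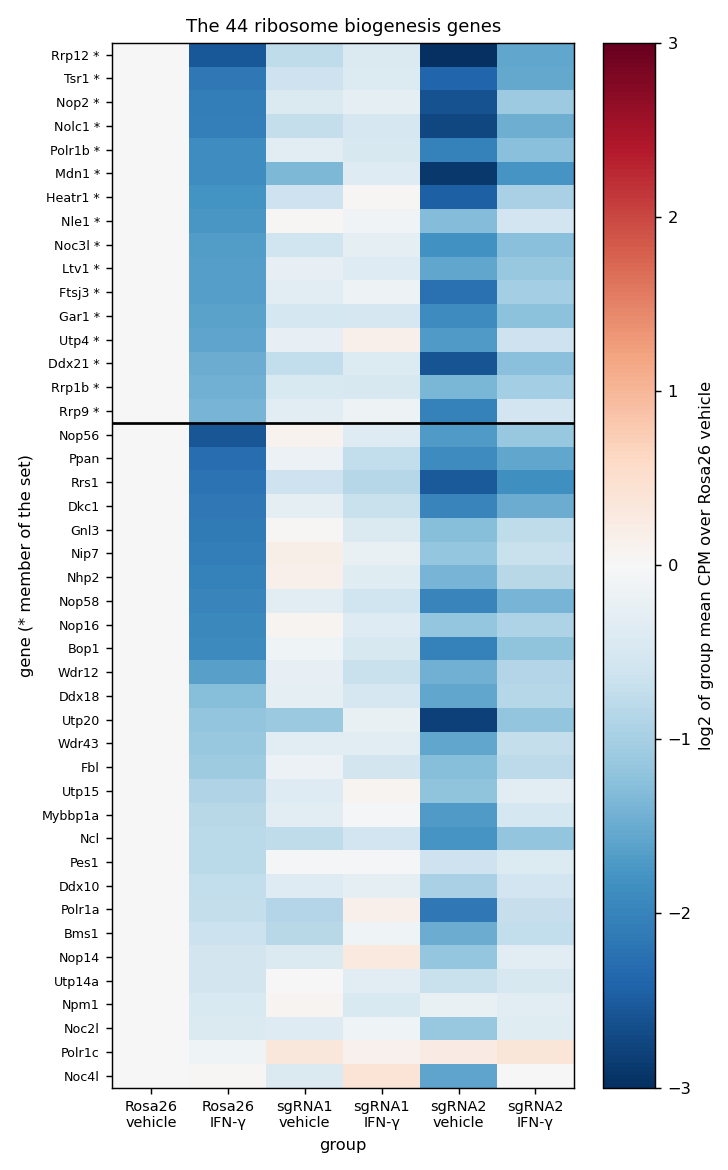
Mean CPM of the 44 ribosome biogenesis genes in each group relative to control (Rosa26) vehicle, as log2 (colour; blue lower, red higher). The 16 members stand above the black line with an asterisk, the other 28 genes below it, each block ordered by control ratio. The columns of control IFN-gamma and sgRNA2 vehicle are blue in both blocks apart from the last genes, such as Polr1c.

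Sequences around the transcription start were compared, because ribosome assembly genes, the largest group of members, often carry an E-box. RefSeq windows (GRCm38.p6) from 250 bases before to 50 after the start were found for 146 of the 177 members. The E-box CACGTG, which reads the same on both strands, was in a window of 35 of the 146 (24.0%) and of 12 of 44 ribosome assembly members (27.3%). It was in 47 of 266 other repressed genes (17.7%), in 1008 of 7897 genes at or above 5 CPM (12.8%) and in 2187 of all 27025 genes with a window (8.09%). Of 41 E-box matches in members, 34 began between 100 bases before and 50 after the start. Windows of 4 ribosome assembly members that hold 1 E-box each are shown, with the E-box in capitals, 2 upstream and 2 downstream of the start; each is written along the gene's own strand. They are Grwd1 (chr7:45830740-45831039, minus strand), Dhx33 (chr11:71004383-71004682, minus strand), Tsr1 (chr11:74897830-74898129, plus strand) and Nop2 (chr6:125131633-125131932, plus strand).
Grwd1: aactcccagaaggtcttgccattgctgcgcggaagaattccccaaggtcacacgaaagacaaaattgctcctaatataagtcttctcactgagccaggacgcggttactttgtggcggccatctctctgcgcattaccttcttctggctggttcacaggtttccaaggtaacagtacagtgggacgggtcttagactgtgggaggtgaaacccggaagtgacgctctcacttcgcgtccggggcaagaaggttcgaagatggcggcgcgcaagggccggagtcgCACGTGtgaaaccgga
Dhx33: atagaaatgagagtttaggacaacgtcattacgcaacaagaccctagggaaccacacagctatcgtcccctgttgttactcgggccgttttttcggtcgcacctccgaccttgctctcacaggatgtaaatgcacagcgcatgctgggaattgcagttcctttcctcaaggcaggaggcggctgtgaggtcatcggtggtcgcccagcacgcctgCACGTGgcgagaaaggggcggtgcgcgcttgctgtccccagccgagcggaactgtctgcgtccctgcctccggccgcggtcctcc
Tsr1: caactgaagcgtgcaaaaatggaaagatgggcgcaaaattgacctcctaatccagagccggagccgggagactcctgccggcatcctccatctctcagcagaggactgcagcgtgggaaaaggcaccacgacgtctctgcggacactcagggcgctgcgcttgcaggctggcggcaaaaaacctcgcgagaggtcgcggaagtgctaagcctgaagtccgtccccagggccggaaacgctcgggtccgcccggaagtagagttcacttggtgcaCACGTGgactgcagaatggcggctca
Nop2: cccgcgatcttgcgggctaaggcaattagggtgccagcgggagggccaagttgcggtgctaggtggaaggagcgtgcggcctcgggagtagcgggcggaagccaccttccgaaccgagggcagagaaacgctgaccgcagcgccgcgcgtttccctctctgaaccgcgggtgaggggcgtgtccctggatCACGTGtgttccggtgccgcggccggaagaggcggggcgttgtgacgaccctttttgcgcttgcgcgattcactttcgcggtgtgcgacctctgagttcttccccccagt
The E-box begins 35 bases before the start in Dhx33 and 60 before it in Nop2, and 34 bases after it in Grwd1 and 24 after it in Tsr1. The spaced C/EBP motif TTGCNNAA, read on either strand, was in 8.90% of members and 9.12% of genes at or above 5 CPM, and the palindrome TTGCGCAA was in no member's window and in 0.380% of those genes. The spaced motif also takes in the palindrome. The gamma-activated motif TTCNNNGAA, read on both strands like the rest, was in 8.90% against 7.97%, the cyclic AMP motif TGACGTCA in 7.53% against 3.86%, CCAAT in 34.9% against 43.4% and the GC box GGGCGG in 71.9% against 73.5%. The interferon-stimulated motif GAAANNGAA was in 6.16% against 7.94%, and the E2F motif TTTCGCGC in 2.05%, only 3 members, against 0.861%. The AP-1 motif TGANTCA was in 4.11% against 5.90%, and TATAAA in 7.53% against 7.74%. A match describes letters only and shows no binding.

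Genes of the MYC network were not among the members. Myc had 203 and 195 CPM in control vehicle, 92.5 and 97.8 in control IFN-gamma, 154 and 153 then 216 and 227 with sgRNA1, and 71.7 and 69.8 then 125 and 127 with sgRNA2. For Myc, sgRNA2 vehicle was the lowest group and control IFN-gamma the next, and the control ratio of 0.478 was above the limit. Of the 177 members only a minority, 80, were lower in sgRNA2 vehicle than in control IFN-gamma. The median ratio of the 2 levels was 1.03, so most members did not share this order of Myc. Mxd1, which encodes a repressor that competes with MYC for MAX, had mean levels of 5.30 CPM in control vehicle and 45.5 in control IFN-gamma, 3.69 and 13.8 with sgRNA1, and 14.6 and 26.5 with sgRNA2. Mxd1 was highest in control IFN-gamma, whereas Mxd4, of the same repressor family, was highest in sgRNA2 vehicle, at a mean of 42.5 CPM against 17.7 in control IFN-gamma. Of the 12 genes of the list in the table, Mir17hg alone had a control ratio of at most 0.4, and its ratios of 0.0766, 0.142 and 0.346 were low in all 3 lines. Over the 10 genes of the list at or above 5 CPM in control vehicle, the median was 86.6% of control vehicle in control IFN-gamma. It was 90.0% and 114% with sgRNA1, and 80.1% and 88.2% with sgRNA2.

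Members that act on transfer RNA and translation numbered 14, with medians of 32.6% in control IFN-gamma, 82.0% and 85.1% with sgRNA1, and 36.1% and 50.8% with sgRNA2. Xpot, the export receptor of transfer RNA, had 208 and 198 CPM in control vehicle, 67.1 and 69.1 in control IFN-gamma, 151 and 152 then 157 and 168 with sgRNA1, and 76.5 and 77.0 then 109 and 114 with sgRNA2. Dph2, an enzyme of the diphthamide modification of elongation factor 2, had 19.3 and 17.3 CPM in control vehicle, 3.63 and 3.17 in control IFN-gamma, 15.8 and 12.5 then 14.9 and 15.9 with sgRNA1, and 3.02 and 2.90 then 5.64 and 7.55 with sgRNA2. Xpot was higher in sgRNA2 vehicle than in control IFN-gamma, and Dph2 was lower. Trmt12, of wybutosine synthesis, had 7.66 and 8.11 CPM in control vehicle, 2.47 and 2.63 in control IFN-gamma, 6.43 and 6.62 then 14.6 and 14.9 with sgRNA1, and 2.77 and 2.84 then 4.19 and 4.72 with sgRNA2. Adat1, a transfer RNA adenosine deaminase, had 12.4 and 16.3 CPM in control vehicle, 3.16 and 5.55 in control IFN-gamma, 12.1 and 13.3 then 12.2 and 11.8 with sgRNA1, and 8.10 and 6.67 then 6.93 and 6.98 with sgRNA2. A list of 27 transfer RNA modification genes held 1 member, and its median was 63.4% in control IFN-gamma and 61.5% in sgRNA2 vehicle.

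Mitochondrial functions were held by 13 members, with medians of 33.6%, 77.0% and 80.3% (sgRNA1), and 37.1% and 50.7% (sgRNA2). Mars2, the mitochondrial methionyl-tRNA synthetase, had 30.1 and 29.3 CPM in control vehicle, 4.93 and 4.71 in control IFN-gamma, 25 and 20.7 then 29.9 and 24.5 with sgRNA1, and 7.95 and 8.09 then 14.5 and 15.4 with sgRNA2. Tomm40, the import channel of the outer membrane, had 166 and 165 CPM in control vehicle, 66.3 and 65.1 in control IFN-gamma, 122 and 116 then 124 and 129 with sgRNA1, and 45.9 and 42.2 then 80.1 and 82.4 with sgRNA2. Twnk, the helicase of mitochondrial DNA, had 45.9 and 45.1 CPM in control vehicle, 15.5 and 13.5 in control IFN-gamma, 31.5 and 30.5 then 28.5 and 28.6 with sgRNA1, and 18.6 and 16.9 then 17.2 and 18.0 with sgRNA2. Tomm40 was lowest in sgRNA2 vehicle and Mars2 and Twnk in control IFN-gamma. None of 28 respiratory chain genes was a member, and their median was 72.7% in control IFN-gamma and 104% in sgRNA2 vehicle.

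Nucleotide and one-carbon metabolism gave 8 members, with medians of 36.4%, 87.2% and 80.3% (sgRNA1), and 43.5% and 54.5% (sgRNA2). Ppat, the first committed enzyme of purine synthesis, had 107 and 103 CPM in control vehicle, 34.0 and 33.4 in control IFN-gamma, 67.5 and 71.2 then 71.0 and 73.8 with sgRNA1, and 26.2 and 22.6 then 42.4 and 40.5 with sgRNA2. Umps, which completes uridine monophosphate, had 140 and 141 CPM in control vehicle, 51.9 and 47.4 in control IFN-gamma, 120 and 122 then 112 and 111 with sgRNA1, and 49.2 and 47.9 then 76.5 and 72.6 with sgRNA2. Dhodh, the pyrimidine enzyme of the mitochondrial membrane, had 35.9 and 34.7 CPM in control vehicle, 14.8 and 12.1 in control IFN-gamma, 40.5 and 41.1 then 37.9 and 35.5 with sgRNA1, and 20.5 and 19.1 then 28.7 and 31.5 with sgRNA2. Ppat was lower in sgRNA2 vehicle than in control IFN-gamma, Umps overlapped between these groups, and Dhodh was higher in sgRNA2 vehicle. Impdh1, of guanine nucleotide synthesis, had 39.0 and 40.8 CPM in control vehicle, 14.5 and 15.3 in control IFN-gamma, 35.8 and 34.6 then 34.5 and 30.2 with sgRNA1, and 19.0 and 19.2 then 20.1 and 24.4 with sgRNA2. Shmt1, the cytosolic serine hydroxymethyltransferase, had 79.0 and 78.0 CPM in control vehicle, 28.9 and 30.6 in control IFN-gamma, 55.1 and 55.7 then 51.5 and 52.5 with sgRNA1, and 19.4 and 19.0 then 38.1 and 38.4 with sgRNA2. Shmt1 was lowest in sgRNA2 vehicle and Impdh1 in control IFN-gamma. Of 19 listed nucleotide synthesis genes, 7 had a control ratio of at most 0.4, 4 were members, and the median was 46.4% in control IFN-gamma and 51.7% in sgRNA2 vehicle.

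DNA replication and the cell cycle gave 8 members, with medians of 36%, 93.3% and 108% (sgRNA1), and 33.0% and 61.2% (sgRNA2). Cdc6, which loads the replicative helicase at origins, had 53.7 and 58.1 CPM in control vehicle, 18.3 and 20.8 in control IFN-gamma, 40.8 and 38.2 then 43.5 and 43.8 with sgRNA1, and 15.5 and 14.3 then 19.9 and 21.6 with sgRNA2. Orc1, a subunit of the origin recognition complex, had 47.7 and 45.4 CPM in control vehicle, 16.9 and 17.1 in control IFN-gamma, 42.2 and 44.9 then 53.1 and 47.1 with sgRNA1, and 21.2 and 19.8 then 33.0 and 32.2 with sgRNA2. Ccne1, the cyclin of entry into S phase, had 19.1 and 17.1 CPM in control vehicle, 4.10 and 4.71 in control IFN-gamma, 20.8 and 21.3 then 28.7 and 27.5 with sgRNA1, and 4.78 and 5.74 then 13.7 and 16.2 with sgRNA2. Ccne1 with sgRNA1 and IFN-gamma was above every control vehicle library. Of 40 listed replication genes 7 had a control ratio of at most 0.4 and 3 were members, and the list's median was 64.1% in control IFN-gamma and 51.7% in sgRNA2 vehicle. None of 30 mitosis genes was a member, and their medians were 112% and 95%.

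Growth signalling members numbered 6, and with sgRNA2 their median ratio was 1.12, against 1.80 for ribosome assembly. Egr1, an immediate early zinc finger factor, had 10.7 and 10.8 CPM in control vehicle, 1.40 and 1.19 in control IFN-gamma, 6.08 and 7.86 then 15.7 and 15.1 with sgRNA1, and 1.26 and 1.04 then 0.913 and 1.33 with sgRNA2. The sgRNA2 libraries of Egr1 were as low in IFN-gamma as in vehicle and overlapped those of control IFN-gamma, so its sgRNA2 ratio of 0.977 is a ratio of low levels, from 17 to 33 reads a library. Fosl1, an AP-1 subunit, had 115 and 114 CPM in control vehicle, 30.6 and 33.7 in control IFN-gamma, 65.9 and 65.3 then 87.9 and 89.1 with sgRNA1, and 29.9 and 29.2 then 33.7 and 32.2 with sgRNA2. Errfi1, a feedback inhibitor of the EGF receptor, had 291 and 300 CPM in control vehicle, 114 and 109 in control IFN-gamma, 233 and 236 then 298 and 307 with sgRNA1, and 117 and 112 then 127 and 128 with sgRNA2. Areg, the EGF receptor ligand amphiregulin, had 36.4 and 31.0 CPM in control vehicle, 6.84 and 8.93 in control IFN-gamma, 34.8 and 31.1 then 31.6 and 35.6 with sgRNA1, and 14.8 and 15 then 16.8 and 16.7 with sgRNA2. In all 4 genes every sgRNA2 library, of either treatment, was below every sgRNA1 library and every control vehicle library. Of 30 immediate early and MAP kinase feedback genes at 5 CPM or more, 4 had a control ratio of at most 0.4. Egr1 and Fosl1 were the members on that list, whose median was 99.0% in control IFN-gamma and 70.8% in sgRNA2 vehicle. Of 20 growth factor ligands and receptors at 5 CPM or more, only Areg had such a ratio, and the medians were 113% and 83.6%. Most genes of these lists were thus not repressed to the limit.

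Members of other roles were few. Sterol and dolichol synthesis gave 3, of which the third is Dolk, the dolichol kinase. Lss, the lanosterol synthase, had 110 and 116 CPM in control vehicle, 39.8 and 38.1 in control IFN-gamma, 70.0 and 65.2 then 63.3 and 65.1 with sgRNA1, and 40.7 and 38.7 then 46.0 and 47.7 with sgRNA2. Hsd17b7, a later enzyme of cholesterol synthesis, had 41.2 and 41.7 CPM in control vehicle, 11.4 and 9.82 in control IFN-gamma, 29.7 and 27.6 then 27.8 and 26.6 with sgRNA1, and 6.74 and 8.30 then 14.9 and 15.6 with sgRNA2. Lss overlapped between control IFN-gamma and sgRNA2 vehicle, and Hsd17b7 was lower in sgRNA2 vehicle. Transcription and chromatin gave 11. Bend3, a transcriptional repressor at heterochromatin and ribosomal DNA, had 34.9 and 38.6 CPM in control vehicle, 5.54 and 7.14 in control IFN-gamma, 16.8 and 19.8 then 19.0 and 20.0 with sgRNA1, and 4.08 and 4.04 then 7.57 and 7.75 with sgRNA2. Dnmt3b, a DNA methyltransferase, had 5.98 and 5.2 CPM in control vehicle, 1.44 and 1.88 in control IFN-gamma, 4.50 and 2.96 then 3.25 and 3.58 with sgRNA1, and 3.27 and 1.42 then 2.36 and 2.42 with sgRNA2. Ciart, a repressor of the circadian clock, had 6.54 and 7.64 CPM in control vehicle, 2.42 and 1.83 in control IFN-gamma, 7.57 and 6.74 then 12.5 and 14.4 with sgRNA1, and 3.72 and 3.22 then 4.51 and 6.29 with sgRNA2. Dnmt3b overlapped between the guides in vehicle, its libraries held few reads, and Ciart with sgRNA1 and IFN-gamma was above control vehicle. Listed clock genes had a median of 175% in control IFN-gamma and 188% in sgRNA2 vehicle, so Ciart did not follow its list. Listed chromatin repressors and methylation genes, with Bend3 and Dnmt3b as the only members, had medians of 116% and 81.5%. Among 4 solute carriers Slc16a6 had 11 and 12.5 CPM in control vehicle, 2.47 and 3.12 in control IFN-gamma, 4.95 and 4.55 then 13.0 and 12.7 with sgRNA1, and 1.31 and 0.983 then 4.99 and 5.12 with sgRNA2. Slc1a5, a glutamine transporter, had ratios of 0.333, 1.09 and 1.91, from 100 and 92.5 CPM.

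The 65 members without a role above included some of the highest and lowest. Dhx9, an RNA helicase, had 328 and 348 CPM in control vehicle, 132 and 133 in control IFN-gamma, 212 and 218 then 208 and 219 with sgRNA1, and 88.1 and 92.1 then 111 and 114 with sgRNA2. Abcf2, an ATP-binding cassette protein that is no transporter, had 210 and 200 CPM in control vehicle, 80.6 and 76.1 in control IFN-gamma, 164 and 160 then 174 and 181 with sgRNA1, and 55.4 and 59.6 then 134 and 136 with sgRNA2. Tuba4a, an alpha-tubulin, had 204 and 202 CPM in control vehicle, 74.8 and 77.8 in control IFN-gamma, 169 and 160 then 146 and 151 with sgRNA1, and 86.8 and 85.1 then 109 and 107 with sgRNA2. These are among the members with the most reads, which CPM ranks by transcript length as well as by level. Aen, an exonuclease induced by p53, had 47.4 and 47.6 CPM in control vehicle, 7.31 and 7.14 in control IFN-gamma, 35.0 and 39.0 then 39.7 and 37.5 with sgRNA1, and 7.55 and 6.99 then 19.1 and 20.3 with sgRNA2. Ccdc86, a nucleolar coiled-coil protein, had 50.8 and 50.3 CPM in control vehicle, 10.6 and 8.78 in control IFN-gamma, 33.0 and 32.4 then 40.8 and 38.7 with sgRNA1, and 8.30 and 8.85 then 17.9 and 17.2 with sgRNA2. Jrk, a nuclear protein derived from a transposase, had 8.12 and 9.56 CPM in control vehicle, 1.49 and 1.74 in control IFN-gamma, 5.69 and 6.56 then 9.65 and 9.38 with sgRNA1, and 1.66 and 2.51 then 1.83 and 3.39 with sgRNA2. Aen and Ccdc86 overlapped between control IFN-gamma and sgRNA2 vehicle and were higher with sgRNA2 in IFN-gamma, whereas Jrk overlapped between the sgRNA2 groups. Listed p53 targets, with Aen as the only member, had a median of 92.2% in control IFN-gamma and 112% in sgRNA2 vehicle.

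The libraries of a group differed widely in Gm10163 and 2210418O10Rik, and in some members with few reads, such as Spag1, with 0.791 and 1.93 CPM in control IFN-gamma. Gm10163, a processed pseudogene of 1 exon on chr9:88390837-88391317 (plus strand), had 86.7 and 0 CPM in control vehicle, 8.47 and 7.54 in control IFN-gamma, 0 and 0 then 0 and 46.2 with sgRNA1, and 0.201 and 2.51 then 53.7 and 21.9 with sgRNA2. Its place in the set rests on 1 control vehicle library. The gene 2210418O10Rik (chr2:176226569-176240328, plus strand) had 25.9 and 26.1 CPM in control vehicle, 5.31 and 4.61 in control IFN-gamma, 12.3 and 24.0 then 20.4 and 18.1 with sgRNA1, and 10.1 and 7.27 then 1.07 and 16.7 with sgRNA2. Its sgRNA2 ratio of 1.02 averages 2 libraries that differ widely. The assembly factors described above showed no such spread.

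The rule sets 1 limit for both guides, but their vehicle levels are the denominators and their IFN-gamma levels the numerators of its ratios. The comparison of the guides therefore uses values that chose the members, and its calls are given as a description beside those of all genes. In vehicle, 173 of the 177 members were lower with sgRNA2 than with sgRNA1 (edgeR quasi-likelihood test, adjusted p below 0.05), with a median log2 difference of -1.24. Of all 13601 genes tested, 29.1% were lower and 33.2% higher, with a median of 0.05. No member was called higher, none at an unadjusted p below 0.05 and 1 (Gm10163) by DESeq2. Every sgRNA2 library was below every sgRNA1 library in 175 members, as in 38.1% of all genes tested. The lower call was also made for 315 of the 340 other repressed genes, so it is not particular to the members. The members without a call were Gm10163, 2210418O10Rik, Dnmt3b and Yy2.

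The largest differences between the guides in vehicle were those of Egr1, Rrp12, Aen, Bysl and Dph2. Egr1 had a log2 difference of -2.56 ± 0.22 (SE). Rrp12 had -2.53 ± 0.09, Aen -2.32 ± 0.09, Bysl -2.26 ± 0.08 and Dph2 -2.24 ± 0.17. All 45 ribosome assembly members were called lower, with a median of -1.41, and so were the 13 mitochondrial, 14 translation, 8 nucleotide, 8 replication, 6 signalling, 4 solute carrier and 3 sterol and dolichol members. Of the 11 transcription and chromatin members 9 were called lower. On the list of 44 ribosome biogenesis genes, members and others together, 43 were called lower in vehicle, with a median of -1.32.

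In IFN-gamma the gap between the guides was narrower. Here 162 of 177 members were lower with sgRNA2 than with sgRNA1 (edgeR, adjusted p below 0.05), with a median log2 difference of -0.67. Of all genes tested 24.5% were lower and 23.4% higher. No member was called higher, none at an unadjusted p below 0.05 and none by DESeq2. In 175 members every sgRNA2 library was below every sgRNA1 library, as in 46.7% of all genes. Of the other repressed genes 226 of 340 were lower. Egr1 again had the largest difference, at -3.64 ± 0.20 (SE), followed by Gm45902 at -1.79 ± 0.14, Jrk at -1.73 ± 0.22, Trmt12 at -1.62 ± 0.14 and 1700052K11Rik at -1.42 ± 0.15. All 45 ribosome assembly members were lower, with a median of -0.68, and on the ribosome biogenesis list 39 of 44 were lower and 2 higher. Dhodh differed by -0.18 ± 0.08 and was not called.

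The level in sgRNA2 vehicle was set beside that in control IFN-gamma member by member. The ratio of the 2 means had a median of 1.03 (quartiles 0.8 and 1.32), 124 members lay within 1.5-fold of each other and 80 were lower in sgRNA2 vehicle. For sgRNA1 vehicle the same ratio had a median of 2.53, with 1 member (Gm10163) below control IFN-gamma. The lowest of the 6 group means was control IFN-gamma in 96 members, sgRNA2 vehicle in 78, sgRNA2 IFN-gamma in 2 and sgRNA1 vehicle in 1. The highest was control vehicle in 118, sgRNA1 IFN-gamma in 49 and sgRNA1 vehicle in 10. Genes with a low ratio of sgRNA2 vehicle to control IFN-gamma included Slc16a6 (0.410), Ddx21 (0.469), Mdn1 (0.489) and Rrp12 (0.592), and genes with a high one included Areg (1.89), Adat1 (1.69) and Mars2 (1.66). Both levels were used by the rule, so this is a description.

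**Figure D5:**
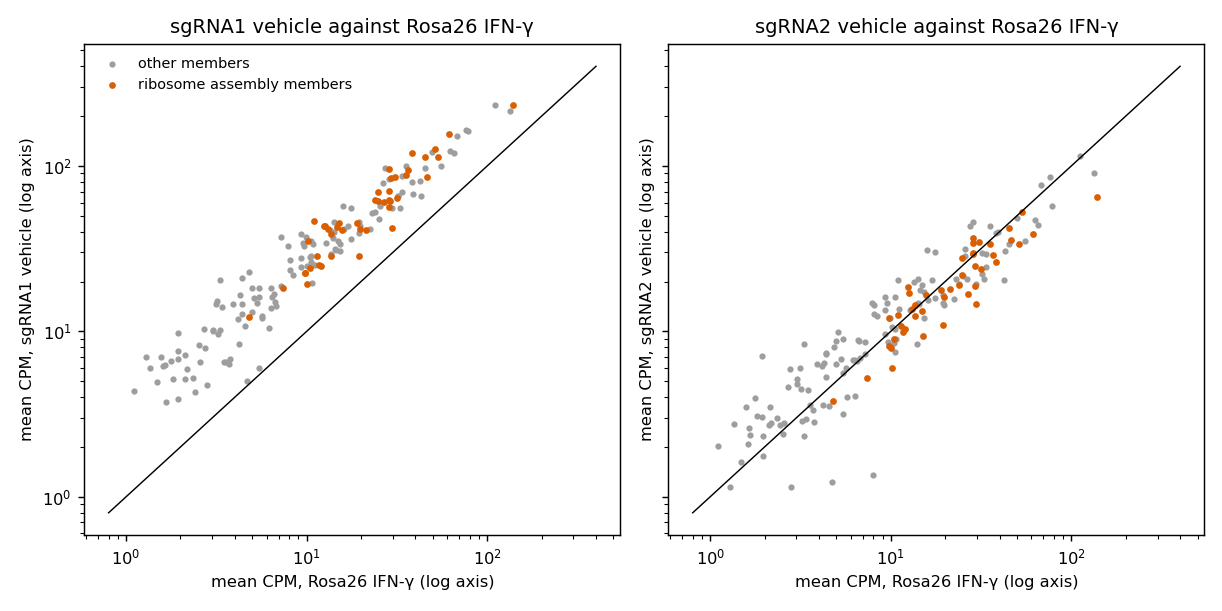
Mean CPM of the members in control (Rosa26) IFN-gamma (x axis, log) against sgRNA1 vehicle (left) and sgRNA2 vehicle (right, y axes log). The diagonal marks equal levels, orange points are ribosome assembly members, and Gm10163 is left out on the left, where it had no count. The sgRNA1 points lie above the diagonal (median ratio 2.53), and the sgRNA2 points lie along it (median ratio 1.03).

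The remaining contrasts also use the values that chose the members, and nothing is read from their calls. In control cells 176 of 177 members were called lower with IFN-gamma (34.1% of all genes; 36.4% were called higher), with a median log2 difference of -1.56. With sgRNA1, 37 were called higher with IFN-gamma (31.7% of all genes) and 32 lower (29.6%), with a median of -0.05. The 32 became 19 without the second sgRNA1 IFN-gamma library, 20 without the first sgRNA1 vehicle library and 21 without the second. With sgRNA2, 133 were called higher with IFN-gamma (30.5% of all genes; 29.2% were called lower), with a median of 0.60, among them 44 of the 45 ribosome assembly members. In vehicle, sgRNA1 was lower than the control in 104 members and higher in 8 (26.9% and 25.6% of all genes; median -0.33). The 8 became 4 by DESeq2 and 17 under upper quartile scaling. In vehicle sgRNA2 was lower than the control in 176 (35% of all genes; 38.3% were called higher; median -1.60). In IFN-gamma, sgRNA1 was higher than the control in 175 members (31.6% of all genes; 33.3% were called lower; median 1.30), and sgRNA2 was higher in 153 and lower in 1 (30.2% and 31.6%; median 0.67). The contrasts with the control share its libraries.

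The members had few features of structure in common beyond their roles. Of the 177, 171 were annotated as protein coding in GENCODE, 3 as antisense, 2 as processed pseudogenes and 1 as a processed transcript. They lay on 20 chromosomes, with 18 of them on chromosome 2. Their median gene span was 14130 bp, against 10550 bp for the other repressed genes and 24390 bp for all genes at or above 5 CPM. Their median exonic length was 3977 bp, against 3130 and 4650 bp, and their median number of exons was 7, against 6 and 10. Their exonic GC content had a median of 49.87%, against 48.77% and 49.45%. Members were thus shorter than the typical expressed gene and longer than the other repressed genes, by medians given without a test.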

How the data were processed

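RNA sequencing of 12 libraries of 4T1 cells was analysed from whole-number read counts per gene, deposited by the authors without normalization. STAR 2.4.0, HTSeq, DESeq2 1.10 and the build mm10 appear in the submitters' processing notes with no role for each; annotation and strand setting: not given in the sources used here. Groups were taken from the labels' titles and treatment entries. CPM is the count scaled to a library total of 1000000, with no further scaling. Medians of gene lists as a percentage of control vehicle cover the listed genes at or above 5 CPM in control vehicle. Genes with at least 10 counts in enough libraries (filterByExpr, minimum total 15) were tested, 13601 of 16283, and all 177 members passed. Differences were tested with edgeR 4.0.16 in R 4.3.3 (TMM, quasi-likelihood, 1 term for each of 6 groups, 6 residual degrees of freedom, Benjamini-Hochberg adjustment over all genes tested, threshold 0.05), after the scripts were tested on simulated data. SE is the absolute log2 difference over the root of F, and so restates the test. The common coefficient of variation was 4.67%, and no 2 libraries of a group differed by less than sampling noise (chi-square per degree of freedom 2.70 to 6.91). Names were matched to GENCODE vM21 (GRCm38): 15941 by name, 223 by synonym and 119 not at all. The members and the gene lists were chosen with earlier results of these data known. Members named with each library's value are the 12 with the lowest control ratio, the 8 with the highest control vehicle CPM and those on a list; for the tests between guides up to 5 called members with the largest change were named. The grouping by role, genes outside the set and other named members (Slc16a6 and Slc1a5) were chosen after their values were seen. Alternatives were DESeq2 1.42.0, DESeq2 size factors, upper quartile scaling, no filter on low counts, a replicate block, other limits of the rule and leaving out each library.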

Additional observations from a re-analysis of the deposited data

Results flagged for a closer look

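The response to IFN-gamma differed between the 2 Cebpd guides by a test of the difference itself (edgeR, adjusted p below 0.05). It was called higher with sgRNA2 than with sgRNA1 in 117 members, against 20.9% of all genes tested, and lower in 1 (Egr1), against 21.9%. The median log2 difference of the responses was 0.57 over the members and 0.62 over the other repressed genes. The ratios that enter this test also chose the members, so it is given as a description. Egr1 had a log2 difference of -1.08 ± 0.32 (SE), with 15.7 and 15.1 CPM for sgRNA1 in IFN-gamma and 0.913 and 1.33 for sgRNA2.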

How the results depend on the processing

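The number of genes meeting the rule depended on its scaling and limits. It was 177 with plain CPM, 112 with TMM-scaled libraries and 107 with DESeq2 size factors, all of them among the 177. It was 393 at a control limit of 0.5 and 60 at 0.3, and 169 to 192 when 1 library was left out. Members called lower with IFN-gamma and sgRNA1 numbered 32, 59 under upper quartile scaling, and 19 to 31 when 1 library was left out. The guide difference of Gm10163 in IFN-gamma (log2 0.82) ran from -0.194 without the first sgRNA1 IFN-gamma library, which reversed it, to 12.517 without the second. Members called higher with sgRNA1 than in the control in vehicle numbered 8, 4 by DESeq2 and 17 under upper quartile scaling, and members with the lower response numbered 1, 2 and 3. For the other contrasts, the counts in the direction that most called members took stayed within 1.5 times of the reported value under the alternatives run. Members lower with sgRNA2 than with sgRNA1 numbered 171 in vehicle and 157 in IFN-gamma by DESeq2, and 154 to 164 in IFN-gamma with 1 library left out. Upper quartile scaling shifted the all-gene median by 0.10 and 0.17 (log2) for sgRNA1 and sgRNA2 against control in vehicle, where the share of higher calls went from 48.8% to 62.8% and from 52.3% to 62.5%. The shift was 0.11 for sgRNA2 against control in IFN-gamma and -0.12 for IFN-gamma with sgRNA2, where that share went from 51.1% to 38.1%. The labels do not say that replicate numbers pair libraries, and the correlation of same-numbered deviations was -0.29 to 0.135 over 15 pairs of groups. With the replicate number as a block, 172 members were lower with sgRNA2 than with sgRNA1 in vehicle and 163 in IFN-gamma. The block gave 176 members lower with IFN-gamma in the control, 37 higher and 31 lower with sgRNA1 and 133 higher with sgRNA2. It also gave 104 and 176 lower than control in vehicle and 175 and 150 higher in IFN-gamma for sgRNA1 and sgRNA2, and 116 with the higher response. Causes were not tested. Depth limits members near 5 CPM.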
